A study of Mus musculus with 6 samples.

Results

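The forkhead genes encode transcription factors that share a winged-helix DNA-binding domain. The family was taken as every protein-coding gene of the mouse RefSeq annotation whose symbol is Fox followed by a letter from a to s and a number, which gave 44 of 21887 protein-coding genes. They belong to 19 subfamilies on 16 chromosomes. Of the 44, 8 lie in 3 linked clusters, defined as members within 500 kb of each other, so the family makes up 39 separate positions in the genome. Each count below covers all 44, and no filter on low values removed a member.

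Peaks came from chromatin immunoprecipitation followed by sequencing (ChIP-seq) in wild-type CD1 mice at embryonic stage E13.5, in mid-gestation. Limb and molar tooth germ were each precipitated with an antibody to pSmad1/5 and with an antibody to Smad4, giving 1 library per tissue and antibody. An input without antibody from each tissue was not analysed here. Both tissues hold several cell types, a peak list carries no expression markers, and the labelled tissues could therefore not be checked against marker genes.

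Bone morphogenetic proteins (BMPs) bind receptors that phosphorylate Smad1 and Smad5, and pSmad1/5 enters the nucleus with Smad4, the partner that the TGF-beta and activin branch uses as well. Forkhead factors meet this pathway in several ways: Foxh1 is a DNA-binding partner of the activin and nodal Smads, Foxo factors join Smads at some genes, and others are regulators of mesenchyme in which BMPs act. Foxf1, Foxf2, Foxc1, Foxc2 and Foxl1 act in embryonic mesenchyme of gut, lung, palate, vessels and skeleton, and Foxi3 acts in ectoderm of developing teeth and hair.

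In limb the pSmad1/5 list held 23387 peaks and the Smad4 list 29754. In molar the pSmad1/5 list held 35476 peaks and the Smad4 list 34561. Where 4 values are given, they follow this order: limb before molar and, within a tissue, pSmad1/5 before Smad4. Read depth is unknown. The lowest score listed differs between chromosomes in the molar lists, here the score below which about 1% of a chromosome's peaks lie, rounded down. It was 2 for molar pSmad1/5 on chromosomes with 16 members (3, 6, 12, 13 and X) and 3 for the other 28. For molar Smad4 it was 4 on chromosomes with 16 members (2, 5, 8, 9, 11 and 19), so weak peaks are not listed there, 3 for 25 members and 2 for the 3 on X. In both limb lists it was 3 for 41 members and 2 for the 3 on X. With 1 library per group no difference has a replicate check, and no p-value was computed.

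At 6 members a summit, the base the peak caller gives as a peak's highest point, lay just upstream of the annotated start of the gene. These stretches show what a Smad peak at a forkhead promoter looks like. Sequences are from RefSeq (GRCm38.p6), 5′ to 3′ on the strand of the gene, and end at the base before the start or 20 bases past the peak. They begin 20 bases before the peak or at the edge of the promoter window. Capitals mark the bases inside the called peak.
Foxf2, limb Smad4, chr13:31625722-31625815, plus strand: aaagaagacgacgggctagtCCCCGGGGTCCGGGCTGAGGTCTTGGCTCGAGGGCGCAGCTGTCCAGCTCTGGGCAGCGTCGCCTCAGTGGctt
Foxd2, limb Smad4, chr4:114908899-114908992, minus strand: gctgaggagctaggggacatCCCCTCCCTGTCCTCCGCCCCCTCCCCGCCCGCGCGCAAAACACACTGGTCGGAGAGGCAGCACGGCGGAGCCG
Foxi3, limb pSmad1/5, chr6:70956479-70956600, plus strand: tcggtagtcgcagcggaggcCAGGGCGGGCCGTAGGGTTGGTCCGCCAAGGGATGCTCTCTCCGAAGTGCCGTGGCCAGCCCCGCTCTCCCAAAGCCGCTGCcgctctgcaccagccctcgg
Foxo1, molar pSmad1/5, chr3:52268244-52268336, plus strand: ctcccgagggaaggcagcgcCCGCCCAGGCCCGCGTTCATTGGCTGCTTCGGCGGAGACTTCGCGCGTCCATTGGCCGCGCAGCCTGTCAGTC
Foxj2, molar pSmad1/5, chr6:122819935-122820034, plus strand: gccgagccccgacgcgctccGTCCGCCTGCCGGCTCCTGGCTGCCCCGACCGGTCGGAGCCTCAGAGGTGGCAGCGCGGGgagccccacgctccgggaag
Foxk2, molar pSmad1/5, chr11:121259737-121259802, plus strand: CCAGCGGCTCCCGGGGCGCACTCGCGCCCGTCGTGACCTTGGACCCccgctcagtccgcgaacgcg

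All 6 stretches are rich in G and C, from 67.0% (Foxf2) to 79.0% (Foxj2). The summits lay 26 bp (Foxf2), 39 bp (Foxd2), 64 bp (Foxi3), 24 bp (Foxo1), 185 bp (Foxj2) and 211 bp (Foxk2) from the start. The letters GGCGCC, the GC-rich Smad element, CAGAC or its complement GTCTG, the Smad box, and TGTTTAC or its complement GTAAACA, a forkhead motif, were searched on both strands and occur in none of the 6. A match of one motif may overlap a match of another, and each was counted.

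Promoter windows, from 250 bases before to 50 bases after a start, were given for 28 of the 44 members, in 33 windows. A summit of any list fell inside such a window at 8 of the 28 members, against 15.7% of all genes with a window. Besides the 6 shown, these were Foxn4 and Foxp1, each at a start inside its longest annotated span. By list, limb pSmad1/5 had 1 member (Foxi3, against 4.21% of all genes with a window) and limb Smad4 had 2 (Foxd2 and Foxf2, against 6.41%). Molar pSmad1/5 had 5 (Foxj2, Foxk2, Foxn4, Foxo1 and Foxp1, against 6.73%) and molar Smad4 had 0 (against 1.07%). Forkhead windows had a median G and C content of 62.7%, against 52.7% over all 32851 windows. The 8 forkhead windows with a summit had a median of 70.2% and the 25 without 60.3%. Over all genes, windows with a summit had 65.0%. GGCGCC occurred in 5 of 33 forkhead windows against 11.9% of all windows, the Smad box in 11 of 33 against 49.6%, and the forkhead motif in 1 of 33 (Foxa1) against 3.65%. A match describes the letters of these windows only.

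Peaks of both limb lists and of molar pSmad1/5 lay near forkhead genes more often than near protein-coding genes at large, whereas for molar Smad4 this depended on distance and score. Within 1 kb of either end of a gene, 16 of 44 members had a limb pSmad1/5 summit (36.4%, against 15.5% of all protein-coding genes). For limb Smad4 there were 20 (45.5%, against 21.8%) and for molar pSmad1/5 21 (47.7%, against 20.7%). Molar Smad4 had 5 (11.4%, against 7.76%), which is close to the background. Shares expected from the chromosomes on which the members lie were 15.8%, 22.4%, 20.3% and 7.86%.

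The same share over all protein-coding genes is called the background from here on. At 10 kb the counts were 33 (75%, background 41.9%), 35 (79.5%, background 47.6%), 35 (79.5%, background 48.1%) and 20 (45.5%, background 36.9%). At 50 kb they were 41 (93.2%, background 67.3%), 40 (90.9%, background 70.5%), 41 (93.2%, background 74.4%) and 37 (84.1%, background 67.3%). The median member had 3 peaks within 50 kb in each list, and medians over all genes were 1, 2, 2 and 1. These windows held 133, 187, 153 and 131 distinct peaks. A member or another forkhead gene was the nearest protein-coding gene for 79, 103, 106 and 79 of them, so many of these peaks lie closer to a gene outside the family.

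Restricting the lists to peaks with a score of at least 4 lowered the counts near gene ends. Within 1 kb, 10 members had such a limb pSmad1/5 peak (22.7%, background 5.57%). The other lists had 7 (15.9%, background 9.73%), 4 (9.09%, background 4.37%) and 1 (2.27%, background 2.26%). Within 50 kb the counts were 23 (52.3%, background 33.7%), 27 (61.4%, background 42.9%), 16 (36.4%, background 27.1%) and 19 (43.2%, background 37.5%). At 10 kb they were 17 (38.6%, background 15.9%), 17 (38.6%, background 22.8%), 10 (22.7%, background 11.1%) and 5 (11.4%, background 13.2%). At this score the share of members stood above the background in the limb lists and in molar pSmad1/5 at all 3 distances. For molar Smad4 it was at the background within 1 kb, below it within 10 kb and above it within 50 kb. Scores near members were similar to those near genes at large: median scores were 3.48, 3.56, 3.20 and 3.25, against 3.48, 3.56, 3.07 and 3.41 for all peaks within 50 kb of a gene.

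**Figure D1:**
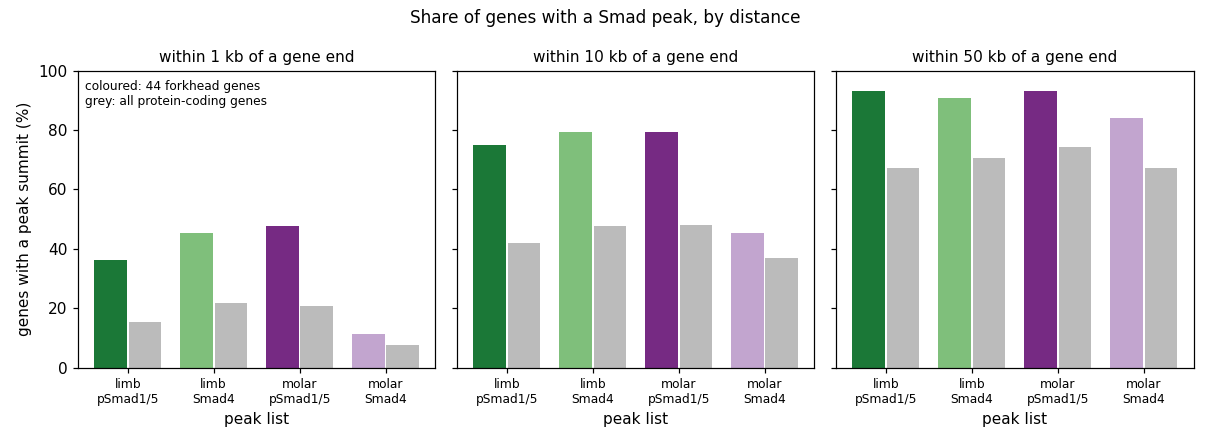
Bars give the share of genes (%) with a peak summit within 1, 10 or 50 kb of a gene end in each peak list, for the 44 forkhead genes (coloured) and all 21887 protein-coding genes (grey), with 1 library per list and no error bars. The coloured bar stands above the grey in all 12 pairs, with the smallest gap for molar Smad4 at 1 kb (11.4% against 7.76%).

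Taking the lists jointly, 34 of 44 members had a summit within 1 kb in at least 1 list (background 44.9%). The other 10 included Foxa1, Foxa3, Foxl1, Foxl2, Foxn1, Foxo3, Foxp2, Foxp3 and Foxr1. In at least 3 lists the members were Foxd2, Foxf2, Foxj1, Foxj3, Foxn4, Foxo1 and Foxp1, which makes 7 of 44 (15.9%, background 3.84%). No member had one in all 4. Within 50 kb, 31 members had a peak in all 4 lists (70.5%, background 43%).

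**Figure D2:**
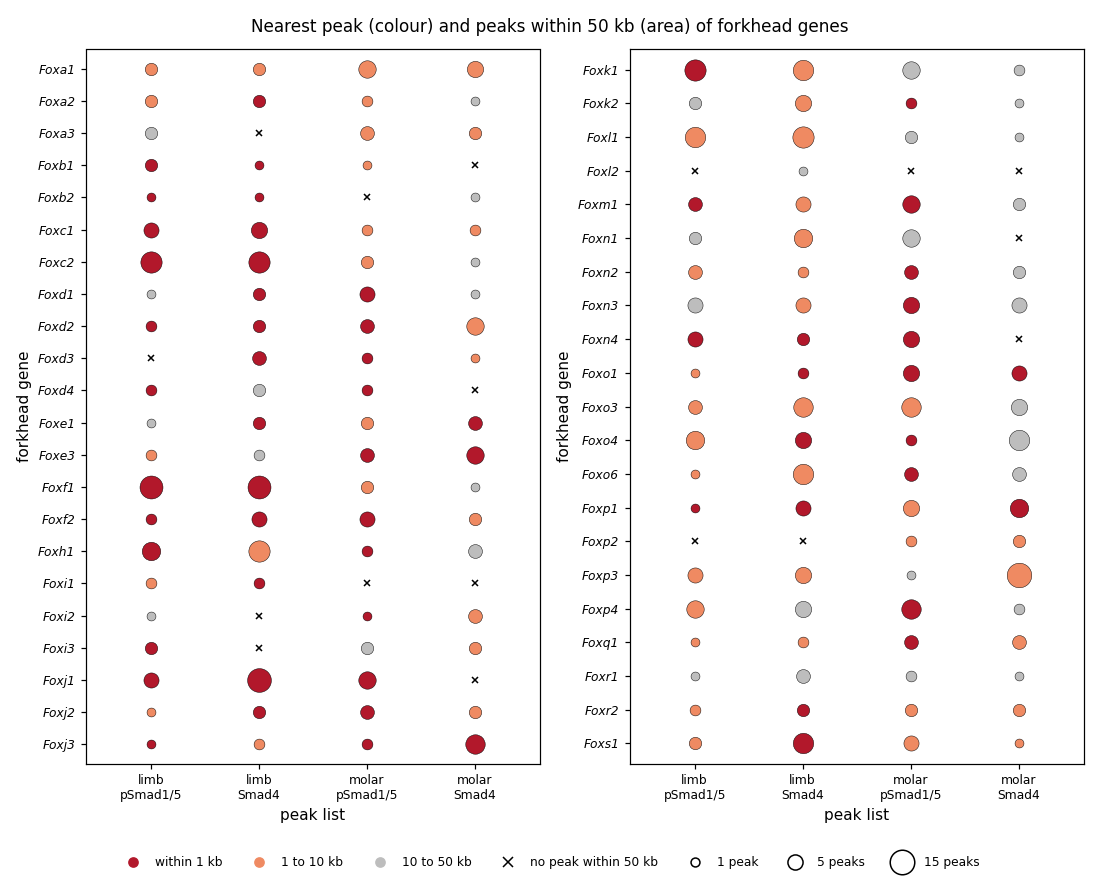
Each circle is 1 of 43 forkhead genes in 1 peak list: the colour gives the distance class of the nearest summit (kb) and the area the number of peaks within 50 kb of the gene, with a cross for no peak. Every gene drawn has a peak in at least 1 list, and Foxl2 in limb Smad4 alone.

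Among the 7 members with a summit within 1 kb in 3 lists, Foxn4, a regulator of retinal and spinal cord interneurons, had the tightest group of peaks. Its summits lay 24 bp from a gene end for limb pSmad1/5 (score 3.78), 91 bp for limb Smad4 (3.67) and 36 bp for molar pSmad1/5 (3.05). The 3 peaks overlap each other, and no molar Smad4 peak lay within 50 kb, on a chromosome where that list starts at 4. Foxj1, the master regulator of motile cilia, had limb pSmad1/5 at 178 bp (4.19), limb Smad4 at 122 bp (3.9997) and molar pSmad1/5 at 10 bp (3.46). The limb peaks overlap by 27 bp, and molar Smad4 again had none within 50 kb.

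Foxf2, which acts in palate and gut mesenchyme, had nearest summits at 107 bp (3.49), 26 bp (3.69) and 256 bp (2.61), and molar Smad4 at 1900 bp (3.03). A second site inside the gene carried limb and molar pSmad1/5 at 1322 bp (3.36) and 1155 bp (4.33). Foxd2, a mesenchymal gene of the kidney and facial region, had them at 776 bp (4.24), 39 bp (3.15) and 291 bp (3.84), with molar Smad4 at 2109 bp (3.10). These summits sit at separate places, and no peak of 1 list overlaps a peak of another there.

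Foxo1, a transcription factor inactivated by insulin signalling, lacked limb pSmad1/5 within 1 kb (nearest 5424 bp, 3.16). Its other summits lay at 123 bp (4.84), 24 bp (2.95) and 551 bp (3.86). Foxj3, a gene expressed in many tissues, had the highest limb pSmad1/5 score within 1 kb of any member, 5.28 at 126 bp. It had molar pSmad1/5 at 367 bp (3.29), molar Smad4 at 687 bp (3.06) and limb Smad4 further off at 5723 bp (3.60). The molar Smad4 summit lay closer to a neighbouring gene, Frg2f1, at 205 bp. Both limb Smad4 peaks of Foxj3 lay nearest to Guca2a. Foxp1, a regulator of lung, heart and motor neurons, carried Smad4 of both tissues just upstream of the start of its longest annotated span. The limb Smad4 summit lay at 216 bp (3.15) and the molar one at 155 bp (3.06), and these peaks overlap by 48 bp. The limb pSmad1/5 summit of Foxp1 lay at the far end, inside the gene at 265 bp (3.20). Its nearest molar pSmad1/5 summit to an end lay at 9024 bp (6.59). A further molar pSmad1/5 summit (2.17) lay 2 bp from a start inside the span.

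**Figure D3:**
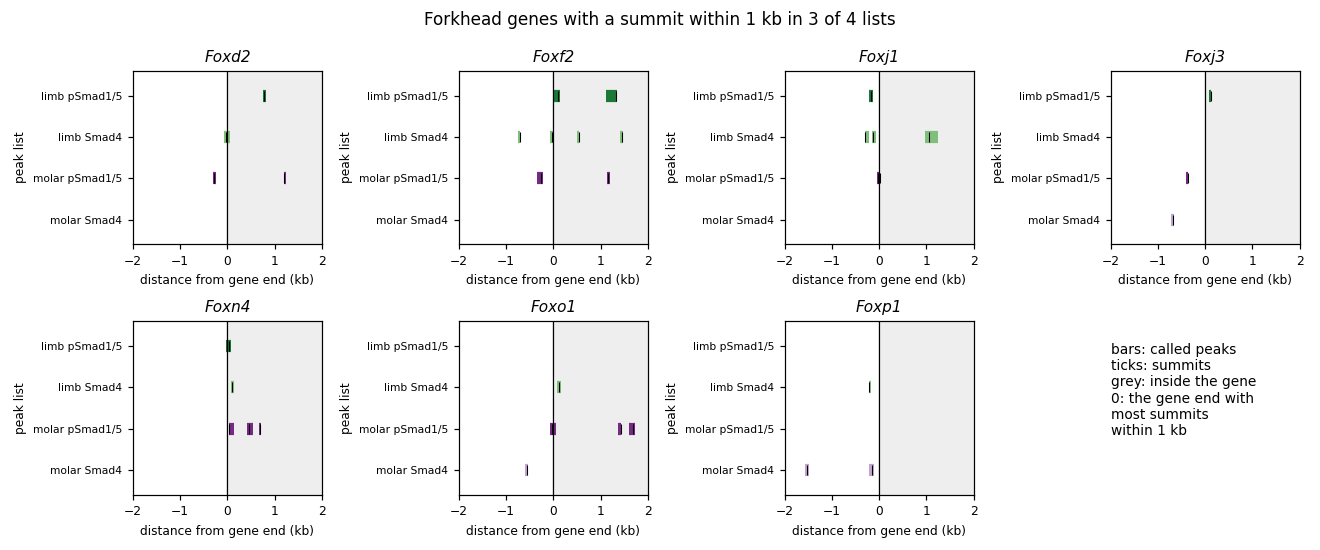
For the 7 members with a summit within 1 kb in 3 of 4 lists, bars show called peaks and ticks their summits by distance (kb) from the gene end with most summits, and grey marks the inside of the gene. The limb pSmad1/5, limb Smad4 and molar pSmad1/5 peaks of Foxn4 lie on top of each other at 24 to 91 bp, while those of Foxd2 lie apart, and at Foxp1 the limb pSmad1/5 peak is at the other end of the gene and is not drawn.

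The orientation of the near peaks could be read where a strand was known. Among summits within 1 kb of such a member, 6 of 9, 15 of 17, 14 of 16 and 3 of 4 were nearer the start than the far end. Over all genes the shares were 76.5%, 78.3%, 82.6% and 57.2%. Members are short, with a median length of 5193.5 bp against 17169 bp for all protein-coding genes, so both ends often lie within a few kb of a summit.

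The mesenchymal genes Foxf1, Foxc2 and Foxl1 form a cluster of 46259 bp on chromosome 8, and limb peaks were far more numerous there than molar peaks. The cluster had 15 limb pSmad1/5 and 15 limb Smad4 peaks within 50 kb of a member, against 3 molar pSmad1/5 and 2 molar Smad4 peaks. The molar Smad4 list starts at a score of 4 on this chromosome, whereas both pSmad1/5 lists start at 3. The limb lists hold 1621 and 1711 peaks on it and the molar lists 1089 and 440. With a score of at least 4 the counts were 5, 3, 0 and 2.

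Foxf1, required in lung and gut mesenchyme (chromosome 8, 121084386 to 121088154), had 13 limb pSmad1/5 and 13 limb Smad4 peaks, 3 molar pSmad1/5 peaks and 1 molar Smad4 peak. Of all protein-coding genes, 0.987% had as many limb pSmad1/5 peaks or more, and 3.57% as many limb Smad4 peaks. The strongest limb Smad4 peak near any member lay 699 bp below the lower-coordinate end of Foxf1 and 577 bp from the long noncoding RNA gene Fendrr. Its score was 7.49, which 0.148% of the list reached. Inside Foxf1 a limb pSmad1/5 and a limb Smad4 peak overlapped by 48 bp, at 776 bp (4.11) and 767 bp (3.17), and a further overlapping pair lay at 8358 and 8308 bp.

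Foxc2, needed for lymphatic vessels and the skeleton (chromosome 8, 121116171 to 121118895), had 11, 11, 3 and 1 peaks. The strongest limb pSmad1/5 peak near any member lay inside it, at 1327 bp from an end with a score of 5.78. A molar pSmad1/5 summit lay 1178 bp from the same gene's end with a score of 3.83. Foxl1, a marker of the mesenchymal cells that support gut epithelium, had 10, 11, 3 and 1 peaks, the nearest a limb Smad4 peak at 1341 bp (3.39). A limb pSmad1/5 peak of 5.63 lay 35522 bp from Foxl1. The 3 genes share most of these peaks and are not separate observations: 8 limb pSmad1/5 and 9 limb Smad4 peaks reached all 3.

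Foxq1, Foxf2 and Foxc1 span 252466 bp on chromosome 13, with gaps of 64839 and 175239 bp, and no peak lay within 50 kb of more than 1 of them. The cluster had 8, 13, 11 and 9 peaks. On this chromosome the molar pSmad1/5 list starts at a score of 2 and the other lists at 3. The limb lists hold 862 and 1036 peaks there and the molar lists 2407 and 2250. With a score of at least 4 the cluster's counts were 2, 3, 2 and 2. Foxq1, known from the satin hair coat, had few limb peaks (1 and 2) and 4 in each molar list. Its limb Smad4 peak at 1030 bp scored 6.19, its molar Smad4 peak at 10695 bp 5.56 and its molar pSmad1/5 peak at 38443 bp 5.50. These are among the 5 highest scores near a member in their lists.

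Foxc1, a regulator of eye, skull and vessel development, had 5, 6, 2 and 2 peaks. Its summits within 1 kb were limb pSmad1/5 at 601 bp (3.61) and limb Smad4 at 817 bp (3.45), while the molar pSmad1/5 summit nearest to it lay at 7416 bp (2.33) and the molar Smad4 summit at 1323 bp (4.20). An overlapping limb pair lay inside the gene at 1902 bp (4.30) and 1840 bp (3.30). Foxf2 had 2, 5, 5 and 3 peaks, and its highest score was 4.87 for limb Smad4, 708 bp outside the gene.

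Foxd2 and Foxe3 lie 15544 bp apart on chromosome 4 and had more molar than limb peaks, 2, 3, 4 and 7. With a score of at least 4 the counts were 2, 0, 1 and 2, so for pSmad1/5 the order of the tissues turned. Foxe3, a lens gene, had molar pSmad1/5 at 765 bp (5.18) and molar Smad4 at 544 bp (4.27). Its limb summits lay at 7128 bp (pSmad1/5, 4.39) and 15506 bp (Smad4, 3.15). The Foxe3 pSmad1/5 summit was the fourth highest near a member in the molar pSmad1/5 list. Molar lists start at 3 on this chromosome, as the limb lists do, but they are longer there. The pSmad1/5 lists hold 899 (limb) and 1381 (molar) peaks on it, and the Smad4 lists 2323 (limb) and 3029 (molar).

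**Figure D4:**
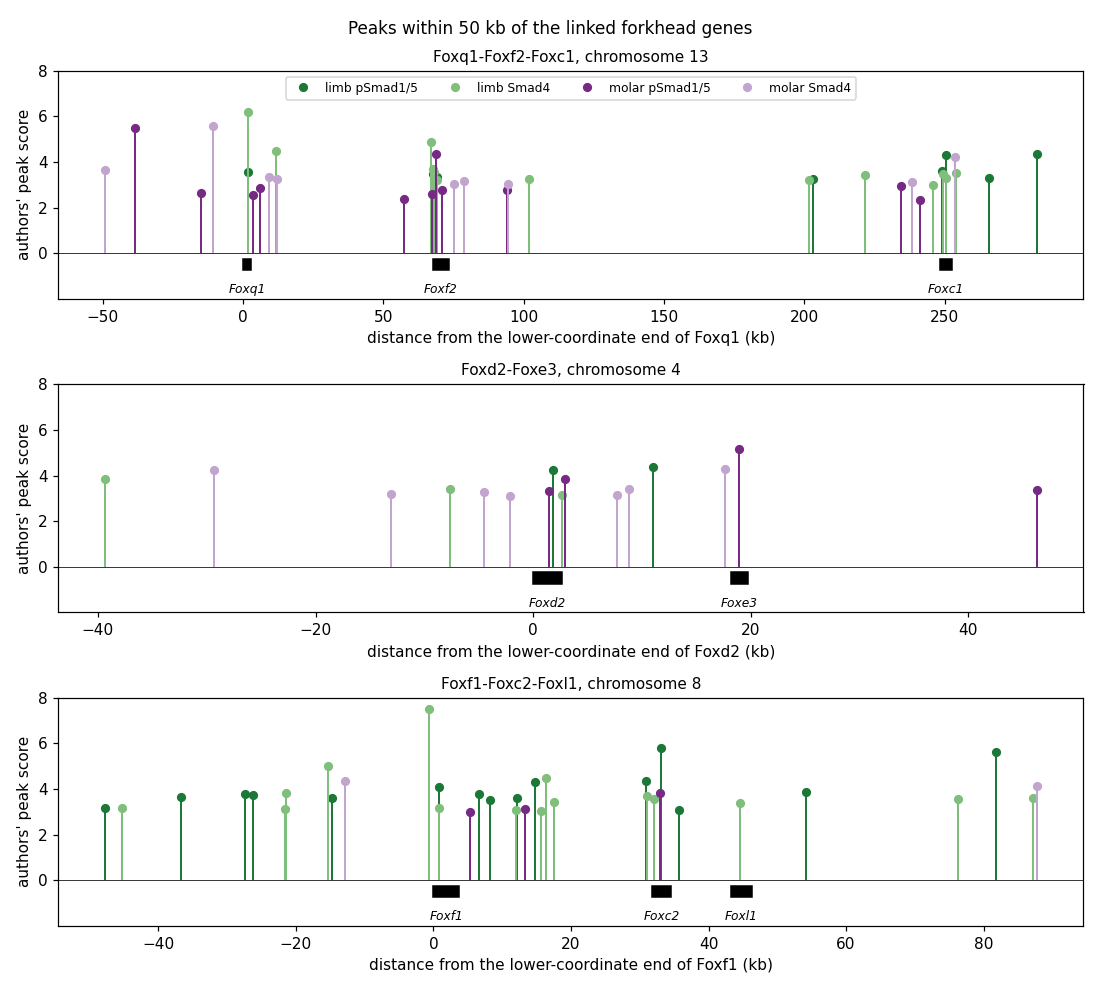
Each stem is a peak within 50 kb of a member of the 3 linked clusters, by distance (kb) from the lower-coordinate end of the first gene and by the authors' peak score, coloured by list, with genes as black boxes. On chromosome 8 the limb lists have 15 peaks each and the molar lists 3 and 2, and on chromosome 4 the molar lists have 4 and 7 and the limb lists 2 and 3.

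Other genes of mesenchyme and neural crest also had peaks close by. Foxd1, a gene of kidney stroma, had molar pSmad1/5 at 235 bp (4.54) and limb Smad4 at 575 bp (3.33), with limb pSmad1/5 at 34692 bp (3.46) and molar Smad4 at 27212 bp (3.93). Foxd3, a neural crest specifier, had limb Smad4 at 66 bp (3.26) and molar pSmad1/5 at 345 bp (3.32). No limb pSmad1/5 peak lay within 50 kb of Foxd3, on a chromosome where all 4 lists start at 3. The limb pSmad1/5 list is the shortest there, with 899 peaks. Foxd4 had limb pSmad1/5 at 862 bp (4.28) and molar pSmad1/5 at 959 bp (3.02), limb Smad4 at 20504 bp (3.68) and no molar Smad4 peak. Foxs1, expressed in vessel-associated cells, had 3, 10, 5 and 1 peaks. Its limb Smad4 summit lay at 181 bp (3.27), and its molar Smad4 summit at 1075 bp scored 5.14, the third highest near a member in that list.

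Foxi3, a gene of ectodermal placodes and teeth, had limb pSmad1/5 at 64 bp (4.56), within the stretch printed above, and no limb Smad4 peak. Its molar pSmad1/5 summits began at 12647 bp (2.83) and molar Smad4 at 1018 bp (3.60). The nearest Foxi3 pSmad1/5 summit was thus in limb, although the molar pSmad1/5 list reaches lower scores on chromosome 6. Foxi2 had molar pSmad1/5 at 390 bp (3.17), molar Smad4 at 7926 bp (4.14), limb pSmad1/5 at 48864 bp (3.21) and no limb Smad4 peak. Foxi1, a gene of the inner ear and of acid-secreting kidney cells, had limb Smad4 at 701 bp (3.41), limb pSmad1/5 at 2170 bp (3.01) and no molar peak. It lies on chromosome 11, where the molar Smad4 list starts at 4, above the highest limb Smad4 score of Foxi1 (3.82).

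Foxe1, a gene of thyroid and palate, had limb Smad4 at 173 bp (5.09) and molar Smad4 at 673 bp (3.18), with pSmad1/5 at 36471 bp in limb (3.04) and 3731 bp in molar (3.42). Foxn1, the thymic epithelial and hair gene mutated in nude mice, had 3, 8, 7 and 0 peaks and none within 1 kb. Its limb Smad4 peak of 6.18 at 29147 bp lay nearest to another gene, Pigs. Its nearest summits lay at 33292 bp for limb pSmad1/5, 3097 bp for limb Smad4 and 11753 bp for molar pSmad1/5.

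The pioneer factors Foxa1 and Foxa2 and the liver gene Foxa3 had 1 summit within 1 kb among them, limb Smad4 at 489 bp of Foxa2 (3.69). Within 10 kb, all 3 had molar pSmad1/5 (background 48.1%), with 10 distinct peaks. Of these, 6 lay at Foxa1 on chromosome 12, where this list starts at 2 and the others at 3. Foxa3 was the nearest protein-coding gene for 0 of its 4 molar pSmad1/5 peaks within 50 kb. Foxa1 had 3, 3, 7 and 6 peaks, Foxa2 3, 3, 2 and 1, and Foxa3 3, 0, 4 and 3. At Foxa1 limb and molar pSmad1/5 overlapped by 50 bp at 5935 bp (3.34) and 5966 bp (2.68), and molar pSmad1/5 and molar Smad4 by 33 bp near 27 kb (26973 and 26917 bp). The second is the only overlap of the molar lists near a member. Foxa3 had 1 of the 5 highest molar Smad4 peaks, 4.80 at 25976 bp, nearest to Nanos2.

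Genes of brain and eye varied. Foxb1, a hypothalamic gene, had limb pSmad1/5 at 741 bp (3.37) and limb Smad4 at 298 bp (4.28), with molar pSmad1/5 at 1055 bp (3.995) and no molar Smad4 peak. Foxb2 had limb pSmad1/5 at 555 bp (4.17) and limb Smad4 at 733 bp (3.42), no molar pSmad1/5 peak and molar Smad4 at 14453 bp (4.64). Both Foxb genes had limb summits within 1 kb for pSmad1/5 (background 15.5%) and Smad4 (background 21.8%). Neither had a molar summit that close (backgrounds 20.7% and 7.76%), although the Foxb1 molar pSmad1/5 summit at 1055 bp only just missed the limit. Molar Smad4 scores below 4 are not listed for chromosome 9 (Foxb1) or 19 (Foxb2). The limb Smad4 score was above that value at Foxb1 (4.28) and below it at Foxb2 (3.42). Foxl2, the ovary and eyelid gene, had a single peak within 50 kb in the 4 lists, limb Smad4 at 15216 bp (4.04).

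Foxh1, the Smad partner in nodal signalling, had limb pSmad1/5 at 36 bp (3.44) and molar pSmad1/5 at 791 bp (3.11). The summit at 36 bp lay outside Foxh1 and inside the neighbouring gene Ppp1r16a. Limb pSmad1/5 summits inside Foxh1 lay at 510 bp (4.04) and 1009 bp (4.18). The Smad4 summits of Foxh1 lay further away, at 4860 bp in limb (3.55) and 10592 bp in molar (3.34). Of its 8, 11, 2 and 4 peaks, Foxh1 was the nearest protein-coding gene for 2, 0, 1 and 0. The Smad4 peaks and most limb pSmad1/5 peaks thus lie closer to neighbouring genes.

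Foxm1, which drives genes of cell division, had pSmad1/5 at 253 bp in limb (4.005) and 437 bp in molar (3.40), with Smad4 at 4415 and 17432 bp. That limb pSmad1/5 summit lay inside the neighbouring gene Rhno1. Foxm1 was the nearest protein-coding gene for 0 of 4, 0 of 5, 3 of 7 and 0 of 3 of its peaks. Foxk1, a gene of muscle progenitors and metabolism, had 11, 10, 7 and 2 peaks and limb pSmad1/5 at 469 bp (3.31), with no molar pSmad1/5 summit nearer than 15167 bp. Its strongest peaks lay further off, limb pSmad1/5 at 28831 bp (5.02) and molar pSmad1/5 at 48884 bp (5.54, nearest to Radil). Foxk2 had molar pSmad1/5 at 211 bp (3.46), inside the stretch shown, and limb Smad4 at 8254 bp (4.34). Foxj2 had limb Smad4 at 111 bp (4.02) and molar pSmad1/5 at 185 bp (3.22). Foxn2 and Foxn3 each had molar pSmad1/5 within 1 kb, at 360 bp (3.57) and 667 bp (2.67), and no other list there. Foxn3, a checkpoint gene of 373587 bp, had the top-scoring molar Smad4 peak near a member at 44078 bp (5.56).

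The insulin-regulated Foxo genes had summits within 10 kb in limb pSmad1/5, limb Smad4 and molar pSmad1/5 at all 4 members, and in molar Smad4 at 1 of 4. The backgrounds at this distance are 41.9%, 47.6%, 48.1% and 36.9%. Foxo3 had 4, 9, 9 and 6 peaks with summits from 1221 bp outward, and an overlapping limb pair at 1393 bp (3.98) and 1416 bp (3.76). A further limb pair at Foxo3 lay at 46895 bp (4.32) and 46888 bp (3.31). Foxo4, on X, had molar pSmad1/5 at 266 bp (2.40) and limb Smad4 at 818 bp (3.32), scores below 3 being listed on X in all lists. Foxo6 had molar pSmad1/5 at 131 bp (4.27) and 10 limb Smad4 peaks, the nearest at 2096 bp (3.38).

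Foxp genes differed in number and place of peaks. Foxp1 had 1, 5, 6 and 8 peaks within 50 kb of its ends, and 2, 9, 22 and 20 inside its 597405 bp. Its molar pSmad1/5 peak of 6.59, reached by 0.110% of the list, was the strongest of that list near a member. Foxp2, of speech and motor circuits, had 0, 0, 2 and 3 peaks near its ends and 2, 0, 7 and 5 inside its 540629 bp. Both lie on chromosome 6, where the molar pSmad1/5 list reaches 2 and the limb lists 3.

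Foxp4 had 7, 6, 9 and 2 peaks with molar pSmad1/5 at 972 bp (3.02). Its limb pSmad1/5 (5.12 at 11513 bp) and limb Smad4 (5.997 at 11788 bp) peaks are among the 5 highest of their lists near a member. Foxp3, the regulatory T cell gene on X, had 15 molar Smad4 peaks, beside 5, 6 and 1 in the other lists, and 99.9% of protein-coding genes had fewer. Of the 15 it was nearest to 3, and the lowest scores listed on X are 2 in all lists. The molar Smad4 list holds 3713 peaks on X, more than on any other chromosome. The other lists hold 1346, 1239 and 1411 there. Foxr1 had 1, 4, 2 and 1 peaks, none within 10 kb. Foxr2, on X, had limb Smad4 at 226 bp (2.24) and an overlapping trio of limb pSmad1/5 (7126 bp, 2.32), limb Smad4 (6992 bp, 2.61) and molar pSmad1/5 (7092 bp, 2.88). Foxn4 and Foxr2 were the members at which 3 lists overlapped.

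Limb pSmad1/5 and limb Smad4 peaks overlapped by at least 1 bp within 50 kb of 10 members (background 12.5%): Foxc1, Foxc2, Foxd4, Foxf1, Foxj1, Foxl1, Foxm1, Foxn4, Foxo3 and Foxr2. Foxc2, Foxf1 and Foxl1 share their sites, which leaves 8 separate positions. Within 10 kb there were 6 (background 5.29%) and within 1 kb 3 (background 2.26%), Foxf1, Foxj1 and Foxn4. Limb and molar pSmad1/5 overlapped at 4 members, Foxa1, Foxf2, Foxn4 and Foxr2 (background 4.75%), and all 4 also had the overlap within 10 kb (background 2.14%). With summits within 200 bp of each other as the rule, 12 members had such a pair (background 9.8%): Foxa1, Foxa2, Foxc2, Foxf1, Foxf2, Foxj1, Foxl1, Foxm1, Foxn4, Foxo3, Foxr2 and Foxs1. Here too Foxc2, Foxf1 and Foxl1 share their pair and are not separate observations.

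Limb Smad4 overlapped molar pSmad1/5 at Foxe1, Foxn4 and Foxr2 (3 members, background 7.6%). It overlapped molar Smad4 at Foxm1, Foxp1 and Foxp3 (3 members, background 1.44%). The molar pair had 1 member (background 1.85%) and limb pSmad1/5 with molar Smad4 had 0 (background 0.859%). In all, 15 of 44 members had an overlapping pair of any lists (background 22.5%), at 17 distinct sites in 12 separate positions, and the other 29 had none. As shares of the 44 members, the limb pair (22.7%), limb and molar pSmad1/5 (9.09%) and limb and molar Smad4 (6.82%) were above their backgrounds. The other 3 pairs were near theirs. The counts are small.

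Between tissues, presence within 50 kb was largely common for pSmad1/5: 39 members had a peak in limb and molar (88.6%, background 59.1%). Foxb2 and Foxi1 had one in limb alone (2 members, background 8.21%), Foxd3 and Foxp2 in molar alone (2 members, background 15.3%), and Foxl2 in neither. Within 1 kb, limb alone had 8 members (18.2%, background 10.4%: Foxb1, Foxb2, Foxc1, Foxc2, Foxf1, Foxi3, Foxk1 and Foxp1) and molar alone 13 (29.5%, background 15.7%: Foxd1, Foxd3, Foxe3, Foxi2, Foxj2, Foxk2, Foxn2, Foxn3, Foxo1, Foxo4, Foxo6, Foxp4 and Foxq1). The 8 with both were Foxd2, Foxd4, Foxf2, Foxh1, Foxj1, Foxj3, Foxm1 and Foxn4 (18.2%, background 5.05%). All 3 classes were thus larger than over all genes. They rest on the ends of the longest annotated span. Among the 13 in molar alone, Foxd1, Foxj2, Foxn3, Foxo1 and Foxq1 lie where the molar pSmad1/5 list starts at 2. The limb pSmad1/5 list starts at 3 on those chromosomes. Foxp1, in limb alone here, had a molar pSmad1/5 summit 2 bp from a start inside its span. With a score of at least 4 the molar count within 1 kb was 4 against 10 in limb, so the order of the tissues turned with the score limit.

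For Smad4 within 50 kb, 33 members had a peak in both tissues (75%, background 55%). Foxb1, Foxd4, Foxi1, Foxj1, Foxl2, Foxn1 and Foxn4 had one in limb alone (7 members, 15.9%, background 15.5%), and all 7 lie on chromosomes where the molar Smad4 list starts at 4. Foxa3, Foxi2, Foxi3 and Foxp2 had one in molar alone (4 members, 9.09%, background 12.3%), on chromosomes 6 and 7. Within 1 kb, 17 members had Smad4 in limb alone (38.6%, background 19.6%). Of these, Foxa2, Foxb1, Foxb2, Foxc2, Foxf1, Foxi1, Foxj1, Foxn4 and Foxs1 lie on chromosomes where the molar Smad4 list starts at 4. The rest lie where it starts at 3, or at 2 on X. Foxe3 and Foxj3 had it in molar alone (2 members, 4.55%, background 5.56%), and Foxe1, Foxo1 and Foxp1 in both (3 members, 6.82%, background 2.2%). More genes with Smad4 in limb alone than in molar alone was also the order over all genes.

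Set beside other developmental families, the 19 Sox genes, regulators related to the sex-determining gene, had 4, 8, 7 and 3 members with a summit within 1 kb (21.1%, 42.1%, 36.8% and 15.8%). The 13 Tbx genes, T-box regulators of heart and limb, had 1, 4, 6 and 2 (7.69%, 30.8%, 46.2% and 15.4%). The backgrounds are those given above, 15.5%, 21.8%, 20.7% and 7.76%. At 10 kb the Sox shares were 63.2%, 78.9%, 84.2% and 42.1%, and the Tbx shares 53.8%, 53.8%, 69.2% and 46.2%. At 50 kb they were 78.9%, 89.5%, 100% and 73.7% for Sox and 69.2%, 76.9%, 76.9% and 92.3% for Tbx. At both distances Sox exceeded the forkhead share for molar pSmad1/5, and Tbx exceeded it for molar Smad4. Otherwise the forkhead share was higher there. The difference between families was not tested. Hedgehog signalling acts upstream of Foxf1, Foxf2 and Foxl1 in gut mesenchyme, and a list of 10 genes was counted (among them Shh, Ptch1, Smo, Gli1, Gli2, Gli3 and Hhip, with the odd-skipped genes Osr1 and Osr2). Of these, 10, 9, 10 and 8 had a peak within 50 kb (backgrounds 67.3%, 70.5%, 74.4% and 67.3%), and 4, 6, 3 and 0 within 1 kb (40%, 60%, 30% and 0%). Shares expected within 1 kb from the chromosomes of the list's genes were 16.3%, 25.4%, 24.2% and 8.8%. The transcription factor gene Gli2 had 3, 14, 21 and 7 peaks and Ptch1, the hedgehog receptor, 5, 5, 11 and 10.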

How the data were processed

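ChIP-seq peaks were analysed for 4 libraries, 1 per tissue and antibody, with none pooled. Per the labels, the authors called peaks with BCP_TF and deposited, the coordinates, length and summit of each peak with a p-value and a score for enrichment. This deposited score, the authors' own value, served to rank or filter peaks within a list. The deposited p-value was used in no test. The submitters' processing notes name Bowtie2, SAMtools, bedtools, deepTools, bcl2fastq and mm10, without versions or roles. Whether inputs served as controls of the calls, and how duplicate reads were treated, was not given in the sources used. The lists hold no read counts, so depth is unknown.

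Gene positions are those of RefSeq for GRCm38.p6, and mm10 has the same primary chromosomes. Positions are 1-based. Peaks on chromosomes 1 to 19, X and Y were used, which left out 4. A gene had a peak when a summit lay within 1, 10 or 50 kb of either annotated end. The gene table gives no strand, and strand was known for 28 members through the RefSeq promoter table. Exons and introns were not separated. An overlap of 1 bp or more made peaks of separate lists shared. No set test was run. Alternatives were other windows, a score of at least 4, equal numbers of top-scoring peaks per chromosome, counting neighbours once, the nearest gene only, gene bodies, an overlap of 50% of the shorter peak and summits within 200 bp. Counting was tested on simulated data. Values are given in full for members with a summit within 1 kb, a shared site, a linked neighbour or a peak among the 5 highest of a list. Examples from the hedgehog list were picked with their values known. Single values of a few genes, which are in the counts, are not reported here. The members and lists were chosen with earlier results of these data known. Python 3.11.15, numpy 2.4.6, pandas 2.3.3 and matplotlib 3.10.9 were used.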

Additional observations from a re-analysis of the deposited data

Results flagged for a closer look

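Molar minus limb counts went opposite ways for the antibodies within 1 and 10 kb and, for distinct peaks, within 50 kb, and the difference was not tested. Members with a summit within 1 kb differed by 5 for pSmad1/5 and by -15 for Smad4, and distinct peaks by 8 and -22. Within 10 kb members differed by 2 and -15, and distinct peaks by 10 and -51. Within 50 kb distinct peaks differed by 20 and -56. Over all protein-coding genes the same counts of genes within 1 kb differed by 1154 and -3074. With a score of at least 4 the forkhead differences in members within 1 kb were -6 for each antibody, and with equal numbers of peaks per chromosome 1 and -9. With equal numbers the pSmad1/5 difference turned negative further out, at -4 for members and -1 for distinct peaks within 10 kb and -3 for distinct peaks within 50 kb, and the Smad4 differences were -13, -33 and -38. The lowest score listed moves with these counts by chromosome and list, and its part in the result was not tested.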

How the results depend on the processing

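Of 82 alternatives computed, 42 gave a count within 1.5 times the one at 50 kb with all peaks, and 40 did not. In the order of lists used above, members with a peak fell to 16, 20, 21 and 5 at 1 kb, and the molar Smad4 count to 20 at 10 kb. With a score of at least 4 they fell to 23 (limb pSmad1/5), 16 (molar pSmad1/5) and 19 (molar Smad4). Distinct peaks fell to 58, 89, 68 and 38 at 10 kb and to 17, 27, 25 and 5 at 1 kb. They were 36, 49, 23 and 21 among peaks scoring 4 or more. With equal numbers per chromosome they were 99 (limb Smad4), 89 (molar pSmad1/5) and 61 (molar Smad4). Members with overlapping peaks changed most. The limb pair fell to 6 at 10 kb, 3 at 1 kb and 0 with the score limit. Limb and molar pSmad1/5 rose to 12 with summits within 200 bp and fell to 1 at 1 kb and 0 with the score limit. Limb pSmad1/5 and molar Smad4 had 1 by summits. Limb Smad4 and molar pSmad1/5 had 8 by summits, 1 at 1 kb and 0 with the score limit. Limb and molar Smad4 had 6 by summits, 1 at 10 kb, 1 at 1 kb and 0 with the score limit. The molar pair had 0 at 10 kb, at 1 kb and with the score limit. Smaller windows and score limits count fewer peaks by construction. Counting linked neighbours once, gene bodies, the nearest gene only and 50% overlap moved no count over 1.5 times. No paired analysis was possible because each group has 1 library, which also left no replicate to omit. Depth is unknown, so a member without a peak cannot be called unbound.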
